A study of Mus musculus with 6 samples.

Results

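The genes described here are 30 genes of mouse energy metabolism that carry pyruvate into the mitochondrion, turn the citric acid cycle, and move reducing equivalents and dicarboxylates across the inner mitochondrial membrane. They were chosen by name, with earlier results of these data known. A probe set was counted only where the platform annotation gave it exactly 1 gene symbol and that symbol was a member. This found all 30 genes among the 20416 genes measured, with 389 of the 212097 probe sets that had 1 symbol. A further 4 probe sets listed a member together with another symbol, 3 of them for Pdha1 and 1 for Pdhb, and were left out. Old symbols are printed with the present symbol in brackets, as Brp44 (Mpc2) and Brp44l (Mpc1).

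RNA of myotubes was measured on 6 exon-level arrays. The myotubes had been made from C2C12, a line of mouse muscle precursor cells that stop dividing and fuse in low serum. The 3 insulin cultures had been exposed to 100 nM insulin for 48 h, a long exposure meant, per the labels, to make the cells resistant to insulin, and the 3 control cultures received none. Cells of both groups had grown in 10% fetal bovine serum and had been fused in 2% horse serum, were used between days 4 and 7 of differentiation, and had fresh medium every 24 h. They are 1 cell line, and each group's 3 arrays are biological replicates per the labels, which name no separate sources, so the p-values measure the spread between these cultures. All values are RMA values on a log2 scale, where a difference of 1 is a 2-fold change, and each gene's value is the median of its probe sets. RMA equalizes the arrays, so a gene is seen only against the rest of the transcripts.

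Pyruvate made by glycolysis crosses the inner mitochondrial membrane through the mitochondrial pyruvate carrier. The pyruvate dehydrogenase complex then turns it into acetyl-CoA, and pyruvate carboxylase turns it into oxaloacetate. Citrate synthase joins these products, and the cycle oxidizes the citrate stepwise while passing electrons to NADH, FADH2 and the respiratory chain. NADH made in the cytosol cannot cross the membrane, so its electrons enter through the glycerol phosphate shuttle and the malate-aspartate shuttle, which skeletal muscle uses during glycolysis.

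Most transcripts of this pathway differed little between insulin and control myotubes, and the smallest p-values belonged to shuttle genes. Gpd2, the mitochondrial glycerol phosphate dehydrogenase, rose 1.48-fold, and Slc25a13, a carrier of the malate-aspartate shuttle, rose 1.37-fold. Idh3a, a subunit of the NAD-dependent isocitrate dehydrogenase, rose 1.19-fold. Brp44 (Mpc2), a subunit of the pyruvate carrier, fell to 0.752 of its control level, which was the fall of a single probe set among its 5. Under 16 other ways of processing the values, the call of Idh3a held in 7 and that of Brp44 in 6. The other 26 members did not pass the test.

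All 30 members lay above the filter on dim genes, a mean log2 level of 7.05, and were tested among 14291 genes with limma, with p-values adjusted by Benjamini-Hochberg over all of them. At an adjusted p of 0.05, 3 members rose where 9.56% of all tested genes rose, and 1 member fell where 6.35% of all tested genes fell. In both directions together 4 of 30 members passed, against 15.9% of all tested genes. At an unadjusted p under 0.05, 6 members were higher and 1 was lower, where 16.7% of all tested genes were higher and 13.2% lower. Whatever the p, 20 members were higher and 10 lower, and 49.4% of all tested genes were higher. Some of these changes were close to none: Ogdh, Fh1, Mdh1 and Glud1 turned lower when each array was centred on its median. The share of all genes under that centring was not computed. The mean of the members, relative to all 6 arrays, was 0.003 on insulin 1 and 0.008 on control 3, so the groups overlapped. The median change of the members was 0.04 on the log2 scale, with a range of -0.41 to 0.56, beside a median of -0.0028 over all tested genes. The median absolute change was 0.089 for the members and 0.122 for all tested genes. The insulin arrays lay wholly above the control arrays in 8 members and wholly below in 2, which makes 10 of 30 members against 35.7% of all tested genes. The shares of members that passed or did not overlap lay near those of all genes.

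**Figure D1:**
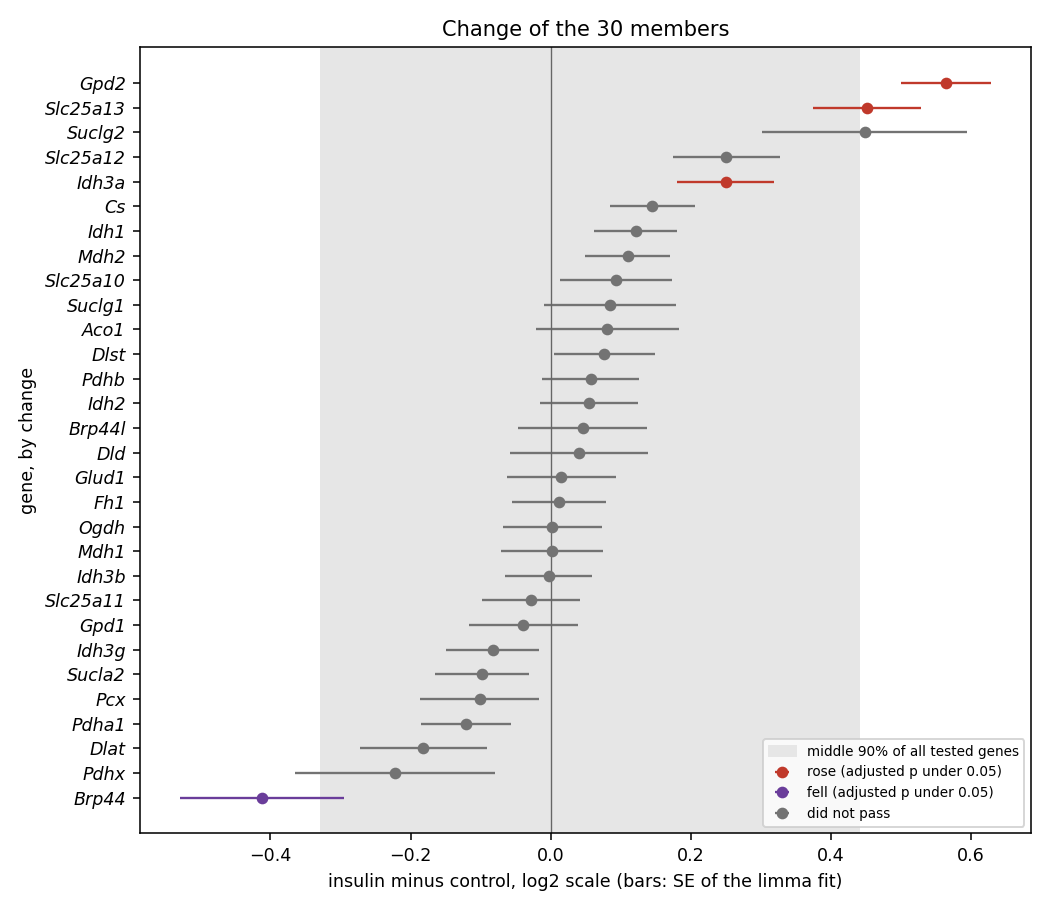
Log2 change (insulin minus control) of the 30 members, ordered by size, with the SE of the limma fit as bars. Gpd2 at 0.56, Slc25a13 at 0.45 and Suclg2 at 0.45 lie above the grey band that holds the middle 90% of all tested genes, and Brp44 at -0.41 lies below it.

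In a principal component analysis the insulin and control arrays lay apart on the leading component (58.6% of the variance), and the next (18.0%) set control 1 (13.3) apart from control 3 (-15.0). The cells carried the markers of myotubes on every array, with a mean level over 12 tested markers of 12.81 to 12.85 on insulin arrays and 13.00 to 13.16 on control arrays. All 12 were lower with insulin, 11 without overlap of the arrays, and 3 fell (Myog, Ckm and Tnni2, with changes of -0.27, -0.30 and -0.26). Among all tested genes, 49.4% were higher, 35.7% did not overlap between the groups, 9.56% rose and 6.35% fell. Of 8 markers of undifferentiated myoblasts, 4 rose (Ccnd1 by 1.27, Mki67 by 0.92, Cd34 by 0.55 and Myf5 by 0.29) and 1 fell (Id3, with a change of -1.13). The other 3 did not pass, and of these Cdh15 (-0.24) and Id1 (-0.17) were lower without overlap, so that 4 of the 8 lay wholly above and 3 wholly below the controls. Their mean level was 10.28 to 10.34 on insulin arrays and 10.05 to 10.18 on control arrays. Their part in the results on the members was not tested, and fewer myotubes cannot be told apart from less RNA per myotube. Most markers of other cell types stayed under the filter, namely Adipoq, Fabp4 and Lep of adipocytes, Lum of fibroblasts, Cdh5, Kdr and Tek of endothelium, and Ptprc, Emr1 (Adgre1), Itgam and Cd3e of immune cells. Over all measured markers of a type, mean levels ran from 6.46 to 6.61 on insulin arrays and 6.42 to 6.80 on control arrays for 5 adipocyte genes, and from 8.08 to 8.17 on insulin arrays and 8.21 to 8.23 on control arrays for 5 fibroblast genes. They ran from 6.57 to 6.65 on insulin arrays and 6.41 to 6.71 on control arrays for 4 endothelial genes, and from 6.56 to 6.68 on insulin arrays and 6.63 to 6.73 on control arrays for 5 immune genes. Of the 8 tested genes among them, none rose and 1 fell in limma, Dcn, a matrix proteoglycan on the fibroblast list, with a change of -0.57. Dcn measured 10.99 to 11.10 on insulin arrays and 11.55 to 11.64 on control arrays, above every other gene of that list. Which cells made it was not tested. At an unadjusted p under 0.05, Dpt and Thy1 were higher and Pdgfra was lower.

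The shuttles held the members with the strongest test results. Gpd2 faces the space between the mitochondrial membranes, oxidizes glycerol 3-phosphate and hands its electrons to ubiquinone. Its log2 level was 11.47, 11.51 and 11.54 on the insulin arrays, against 10.90, 11.00 and 10.93 on the control arrays. The 3 insulin arrays lay close together and well above all 3 controls. The means were 11.51 ± 0.04 with insulin and 10.94 ± 0.05 without (SD, n = 3 each), a change of 0.56 ± 0.06 (SE) with an adjusted p of 0.002 in limma, and 97.3% of all tested genes changed by less than this or fell. Every probe set of the gene took part: all 18 were higher with insulin, by 0.32 to 0.84, and 16 of them rose by themselves. The call held under all 16 other ways of processing the values, with changes of 0.47 to 0.60.

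Gpd1 makes the glycerol 3-phosphate that Gpd2 consumes, using NADH in the cytosol. Its log2 level was 8.14, 8.09 and 8.00 on insulin arrays, against 8.13, 8.21 and 8.00 on control arrays, which overlap. The change was -0.04 ± 0.08 (SE), with an adjusted p of 0.782 in limma. Set against each other within each array, Gpd1 minus Gpd2 was -3.32, -3.42 and -3.54 on insulin arrays and -2.77, -2.79 and -2.92 on control arrays. Levels of different probes cannot be compared, so only the shift of such a difference between the groups is read here. The difference between their changes was -0.60, with no overlap of the groups and an exact permutation p of 0.1 (two-sided), the smallest that 3 arrays against 3 can give.

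Slc25a13, also called citrin, and Slc25a12, also called aralar, exchange mitochondrial aspartate for cytosolic glutamate, the step of the malate-aspartate shuttle that is driven by the membrane potential. In mammals Slc25a12 is the carrier of muscle and brain, and Slc25a13 that of liver. Slc25a13 measured 7.55, 7.76 and 7.72 with insulin, against 7.16, 7.24 and 7.28 in controls. Every insulin array lay above every control array. The means were 7.68 ± 0.11 with insulin and 7.22 ± 0.06 in controls (SD, n = 3 each), the change was 0.45 ± 0.08 (SE), and the adjusted p was 0.008 in limma. The gene lay close to the filter, and 11 of its 20 probe sets were themselves under the filter for probe sets (7.57), so this change rests on dim signals. Of the 20 probe sets, 18 were higher with insulin, while none of the 9 tested passed by itself. The changes of these 9 ran from -0.12 to 0.78, with a median of 0.23.

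Slc25a12 measured 10.81, 10.92 and 11.00 with insulin, against 10.57, 10.72 and 10.68 in controls. Its groups did not overlap either, and all 19 of its probe sets were higher with insulin, by 0.01 to 0.35. The change of 0.25 ± 0.08 (SE) missed the threshold with an adjusted p of 0.062 in limma, and it passed under 5 of 16 alternatives. Within arrays, the change of Slc25a13 exceeded that of Slc25a12 by 0.20, again without overlap and with an exact permutation p of 0.1. The brightest probe sets gave 0.67. The remaining carriers of the group are Slc25a10, which exchanges dicarboxylates for phosphate, and Slc25a11, which exchanges oxoglutarate for malate in the malate-aspartate shuttle. They changed by 0.09 ± 0.08 and -0.03 ± 0.07 (SE), with adjusted p-values of 0.490 and 0.830 in limma. Both overlapped between the groups. Of the 4 carriers, 1 rose and 3 did not pass, with a median change of 0.17 on the log2 scale.

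**Figure D2:**
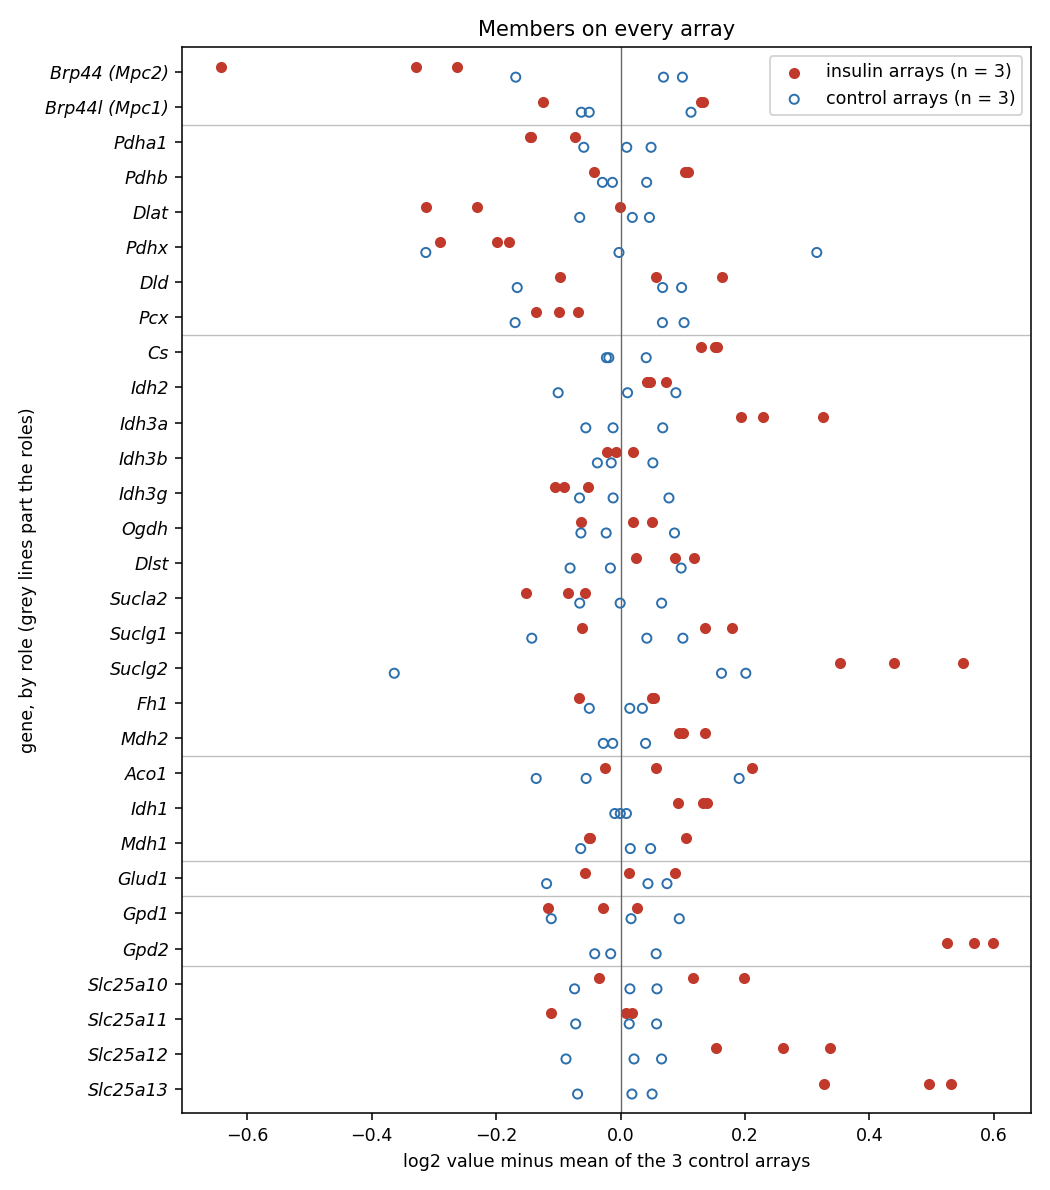
Log2 value of each member on each of the 6 arrays, as the difference from the mean of the 3 control arrays, with insulin arrays filled and control arrays open. Gpd2, Slc25a13, Slc25a12, Idh3a and Suclg2 have all insulin arrays to the right of the controls, Brp44 (Mpc2) has all to the left, and the control array of Suclg2 farthest to the left is control 1.

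The sequences around the starts of the 2 shuttle genes that rose are shown to give their promoters, which were searched for motifs known from mitochondrial, stress and growth genes. RefSeq windows of build GRCm38.p6, from 250 bases before to 50 bases after the start, were found for 28 of the 30 members, in 37 windows. Gpd2 has 2 starts, with windows at chr2:57237428-57237727 and chr2:57238132-57238431 on the plus strand, of 53.0% and 72.7% G and C. Slc25a13 has 1 start, with its window at chr6:6217124-6217423 on the minus strand, of 65.0% G and C. The sequences run from 5′ to 3′, and capitals mark an E-box match.
Gpd2, upstream start: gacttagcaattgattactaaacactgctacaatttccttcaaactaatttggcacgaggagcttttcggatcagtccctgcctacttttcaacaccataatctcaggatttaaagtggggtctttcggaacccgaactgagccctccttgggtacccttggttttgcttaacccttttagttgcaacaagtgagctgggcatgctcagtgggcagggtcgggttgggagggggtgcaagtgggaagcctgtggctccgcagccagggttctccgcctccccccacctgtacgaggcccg
Gpd2, downstream start: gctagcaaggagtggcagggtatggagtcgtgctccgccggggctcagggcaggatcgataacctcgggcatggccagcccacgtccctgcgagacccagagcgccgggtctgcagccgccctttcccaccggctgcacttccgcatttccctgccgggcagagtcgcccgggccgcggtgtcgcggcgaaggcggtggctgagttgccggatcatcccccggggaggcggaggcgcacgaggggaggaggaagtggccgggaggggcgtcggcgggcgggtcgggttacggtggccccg
Slc25a13: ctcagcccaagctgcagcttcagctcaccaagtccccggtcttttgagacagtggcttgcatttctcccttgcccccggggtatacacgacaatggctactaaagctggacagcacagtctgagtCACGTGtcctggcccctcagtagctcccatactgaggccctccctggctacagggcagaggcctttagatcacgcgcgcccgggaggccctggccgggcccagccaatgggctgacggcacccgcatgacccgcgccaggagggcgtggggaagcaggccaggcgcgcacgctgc

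The E-box CACGTG, which MYC, MAX and related factors can bind, was found in the Slc25a13 window, beginning at base -125 from the start, and in neither Gpd2 window. Among members it was in 5 of 37 windows, belonging to Ogdh, Pcx and Slc25a13, and in 7.15% of 32851 windows of all genes. The NRF1 motif was in 2 windows of members, those of Dld and Sucla2, and in 4.60% of all windows. The ERR motif TNAAGGTCA, found in 1.28% of all windows, and the ATF4 motif TGATGNAA, found in 3.97%, were in no window of a member. Both strands were searched, and overlaps between motifs were not treated apart. A match describes letters only. Idh3a and Gpd1 were not matched to a window.

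Brp44 (Mpc2) and Brp44l (Mpc1) form the mitochondrial pyruvate carrier together, and of these Brp44 fell and Brp44l did not pass. Brp44 (Mpc2) measured 11.08, 11.02 and 10.70 on insulin arrays, against 11.18, 11.41 and 11.44 on control arrays. The insulin arrays lay below all controls, narrowly so for insulin 1 and control 1. The means were 10.93 ± 0.20 with insulin and 11.34 ± 0.15 in controls (SD, n = 3 each), and the change of -0.41 ± 0.12 (SE) had an adjusted p of 0.049 in limma. This fall was that of a single probe set. Of the gene's 5 probe sets, the middle in level on every array was the same, and it changed by -0.41 (adjusted p of 0.124 in limma among probe sets), while the other 4 changed by -0.15 to 0.03. The brightest probe set gave a change of -0.07 and the mean of all 5 gave -0.13, with adjusted p-values of 0.491 and 0.465 in limma. The call was also lost without any single array other than control 1, with adjusted p-values of 0.064 to 0.142 in limma without control 2, control 3, insulin 1, insulin 2 or insulin 3.

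Brp44l (Mpc1) measured 9.56, 9.81 and 9.81 with insulin, against 9.62, 9.63 and 9.79 in controls, and these overlap. Its change was 0.05 ± 0.09 (SE), with an adjusted p of 0.789 in limma. Within arrays, the change of Brp44l (Mpc1) exceeded that of Brp44 (Mpc2) by 0.46, without overlap and with an exact permutation p of 0.1. When each gene was read from its brightest probe set alone, both subunits changed by -0.07.

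None of the 6 genes that use pyruvate inside the mitochondrion passed limma's test, and none of them did at an unadjusted p under 0.05. Their median change was -0.11, with 4 lower and 2 higher. Among the lower genes, the changes of Dlat and Pdhx depended on how the probe sets were summarized, as given below. Pdha1, the catalytic E1 alpha subunit of pyruvate dehydrogenase and the target of its regulatory kinases, measured 12.52, 12.59 and 12.52 with insulin, against 12.72, 12.68 and 12.61 in controls. All insulin arrays lay below the controls, by little, and 11 of its 12 probe sets were lower. The change was -0.12 ± 0.06 (SE), with an adjusted p of 0.259 in limma. Pdhb, the E1 beta partner of Pdha1, changed by 0.06 ± 0.07 (SE). The change of Pdha1 minus that of Pdhb was -0.18 within arrays, without overlap (exact permutation p of 0.1), and -0.03 with the brightest probe sets.

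Pdhx, which anchors the E3 enzyme in the complex, had the lowest change among the members that did not pass, at -0.22 ± 0.14 (SE) with an adjusted p of 0.348 in limma. It measured 10.48, 10.46 and 10.37 on insulin arrays, against 10.66, 10.35 and 10.98 on control arrays. The controls were spread more widely than the difference between the groups, and control 2 lay below all insulin arrays. Of the 13 probe sets of Pdhx, 6 were higher with insulin and 7 lower. Its brightest probe set gave a change of 0.03 and the mean of its probe sets gave -0.05, so its place depended on the summary used. Dlat, the acetyl-transferring E2 core, changed by -0.18 ± 0.09 (SE) and measured 11.60, 11.37 and 11.29 with insulin, against 11.62, 11.65 and 11.54 in controls. Insulin 1 lay among the controls and the other 2 below them. Of the 16 probe sets of Dlat, 9 were higher with insulin and 7 lower. The mean of its probe sets gave a change of -0.02, with an adjusted p of 0.802 in limma. Dld, the E3 enzyme shared with the oxoglutarate dehydrogenase complex, changed by 0.04 ± 0.10 (SE). Pcx, pyruvate carboxylase, which replenishes oxaloacetate, changed by -0.10 ± 0.08 (SE) and overlapped between the groups. Its change and that of Pdha1, the other user of pyruvate, differed by 0.02 within arrays (exact permutation p of 1).

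Of the 12 cycle enzymes in the mitochondrion, 9 were higher with insulin and 3 lower, with a median change of 0.07, and 1 passed. Idh3a, the catalytic subunit of the isocitrate dehydrogenase that drives the cycle, measured 12.02, 12.05 and 12.15 with insulin, against 11.77, 11.81 and 11.89 in controls. Every insulin array lay above every control. The means were 12.07 ± 0.07 with insulin and 11.82 ± 0.06 in controls (SD, n = 3 each), the change was 0.25 ± 0.07 (SE), and the adjusted p was 0.045 in limma. All 10 of its probe sets were higher with insulin, by 0.10 to 0.59, and 1 rose by itself. The call stood near the threshold: limma's adjusted p was 0.088 without control 1, 0.131 without control 2, 0.082 without insulin 1, 0.116 without insulin 2, 0.149 without insulin 3 and 0.286 with the brightest probe set, which changed by 0.11.

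The regulatory subunits of the same enzyme, Idh3b and Idh3g, changed by -0.003 ± 0.062 and -0.08 ± 0.07 (SE). Neither passed, with adjusted p-values of 0.982 and 0.455 in limma. Within arrays, the change of Idh3a exceeded that of Idh3g by 0.33, without overlap and with an exact permutation p of 0.1, and by 0.16 with the brightest probe sets. Idh2, the NADP-dependent isocitrate dehydrogenase of the mitochondrion, changed by 0.05 ± 0.07 (SE).

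Suclg2, the GTP-forming beta subunit of succinyl-CoA ligase, had the highest change among the members that did not pass. It measured 10.42, 10.62 and 10.51 on insulin arrays, against 9.70, 10.27 and 10.23 on control arrays. The insulin arrays lay above all controls, and control 1 lay far below the other 2 controls. The change was 0.45 ± 0.15 (SE), with an adjusted p of 0.077 in limma. Without control 1 the change was 0.27, with an adjusted p of 0.066 in limma. All 12 probe sets were higher with insulin, by 0.28 to 0.76, and 3 of them rose by themselves. With the mean of the 12 in place of the median, the gene's change was 0.48 with an adjusted p of 0.012 in limma.

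Sucla2 is the ATP-forming counterpart, and Suclg1 is the alpha subunit that either beta subunit joins. Sucla2 changed by -0.10 ± 0.07 (SE) and was lower in 11 of its 13 probe sets, without passing. Suclg1 changed by 0.08 ± 0.09 (SE). Within arrays, Sucla2 minus Suclg2 was 1.69, 1.46 and 1.51 with insulin and 2.53, 1.83 and 1.94 in controls. The difference between their changes was -0.55, without overlap and with an exact permutation p of 0.1, and control 1 stood apart here as well. Without control 1 the difference was -0.33, and with the brightest probe sets it was -0.29.

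Cs, citrate synthase, which opens the cycle, measured 12.93, 12.93 and 12.91 with insulin, against 12.76, 12.76 and 12.82 in controls. The groups did not overlap, and all 12 probe sets were higher. The change of 0.15 ± 0.06 (SE) did not pass, with an adjusted p of 0.151 in limma. Mdh2, the malate dehydrogenase that closes the cycle, measured 13.23, 13.26 and 13.22 with insulin, against 13.10, 13.11 and 13.17 in controls, with a change of 0.11 ± 0.06 (SE). It was apart on the arrays as well, but its adjusted p was 0.275 in limma. Dlst, the E2 core of the oxoglutarate dehydrogenase complex, changed by 0.08 ± 0.07 (SE), and Fh1, fumarase, by 0.01 ± 0.07 (SE).

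**Figure D3:**
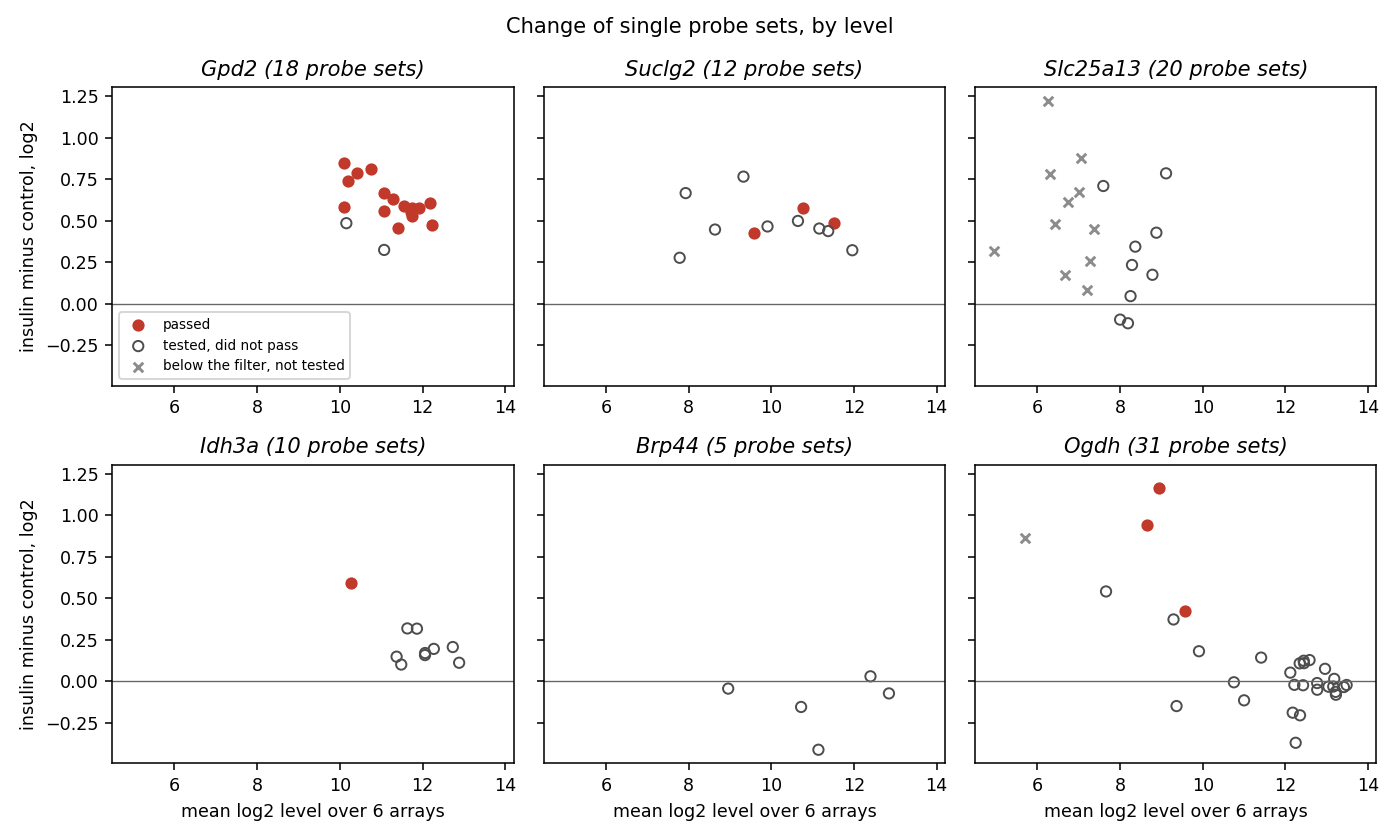
Log2 change (insulin minus control) of every probe set of 6 members against its mean log2 level over the 6 arrays, filled where it passed at an adjusted p of 0.05. All probe sets of Gpd2, Suclg2 and Idh3a lie above 0, those of Brp44 (Mpc2) lie near 0 except the lowest at -0.41, and the raised ones of Ogdh stand at lower levels than most of its others.

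Ogdh, the E1 enzyme of the oxoglutarate dehydrogenase complex, did not pass as a gene, while 3 of its probe sets rose. Its log2 level was 12.34, 12.26 and 12.37 with insulin, against 12.30, 12.26 and 12.41 in controls, a change of 0.002 ± 0.070 (SE). Of its 31 probe sets 15 were higher and 16 lower, and 30 were tested. Probe set 10374125 measured 9.34, 9.73 and 9.50 with insulin, against 7.84, 8.58 and 8.65 in controls, a change of 1.16 with an adjusted p of 0.037 in limma. Probe set 10374124, next to it in number, measured 9.15, 9.12 and 9.12 with insulin, against 7.87, 8.60 and 8.10 in controls, a change of 0.94 with an adjusted p of 0.034. Both were higher on every insulin array than on any control.

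Limma's diffSplice, which asks whether the probe sets of a gene change unequally, called Ogdh as the only member (adjusted p of 1.74e-06), where it called 3.42% of 14643 genes. It called too many genes in simulated data, and it takes the same spread for all probe sets of a gene. A test of each probe set against the mean of the gene's others, added after seeing this, called 0 of 367 member probe sets in limma, and 0.0105% of all probe sets. At an unadjusted p under 0.05 it found 18 member probe sets and 7.41% of all. The adjusted p of 10374125 was 0.313 and that of 10374124 was 0.322 in that test. The unequal change within Ogdh was therefore called or not called by the choice of test.

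Over all members, 367 of the 389 probe sets were bright enough to be tested singly. Of these, 23 rose, where 3.95% of all tested probe sets rose, and 0 fell in limma, where 1.71% of all did. At an unadjusted p under 0.05, 63 were higher and 4 lower, where 13.4% of all tested probe sets were higher and 9.35% lower. Of the 23, 16 belonged to Gpd2, 3 to Suclg2, 3 to Ogdh and 1 to Idh3a. Among all 389, 250 were higher with insulin and 139 lower, and of all probe sets with 1 symbol 48.7% were higher. Probe sets of 1 gene share its transcripts and are not independent of each other.

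The cytosolic counterparts of cycle enzymes did not pass in limma, and none of the 3 did at an unadjusted p under 0.05. Idh1, which makes NADPH in the cytosol, measured 12.35, 12.36 and 12.31 with insulin, against 12.23, 12.21 and 12.22 in controls. The arrays did not overlap, and the change of 0.12 ± 0.06 (SE) had an adjusted p of 0.215 in limma. Its mitochondrial counterpart Idh2 had changed by 0.07 less, with overlapping arrays (exact permutation p of 0.4). Aco1, the cytosolic aconitase that doubles as an iron sensor, changed by 0.08 ± 0.10 (SE), with 21 of 22 probe sets higher. Mdh1, the cytosolic malate dehydrogenase of the malate-aspartate shuttle, changed by 0.002 ± 0.073 (SE), and its change minus that of Mdh2 was -0.11, with overlap (exact permutation p of 0.2). Glud1, glutamate dehydrogenase, which links glutamate to oxoglutarate, changed by 0.02 ± 0.08 (SE).

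Of the 10 pairs of partners compared within arrays, 6 did not overlap between the groups. Each of these 6 had an exact permutation p of 0.1, the smallest possible, and 0.167 after Benjamini-Hochberg adjustment over the 10. No pair could therefore pass. The share of other gene pairs that do not overlap was not computed, so nothing is read from this count. The sizes depended on the probe sets used: the brightest probe sets turned Idh1 minus Idh2 to -0.14 and left Gpd1 minus Gpd2 at -0.52. The pair of Slc25a10 and Slc25a11 overlapped, with a difference between their changes of 0.12 (exact permutation p of 0.2).

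**Figure D4:**
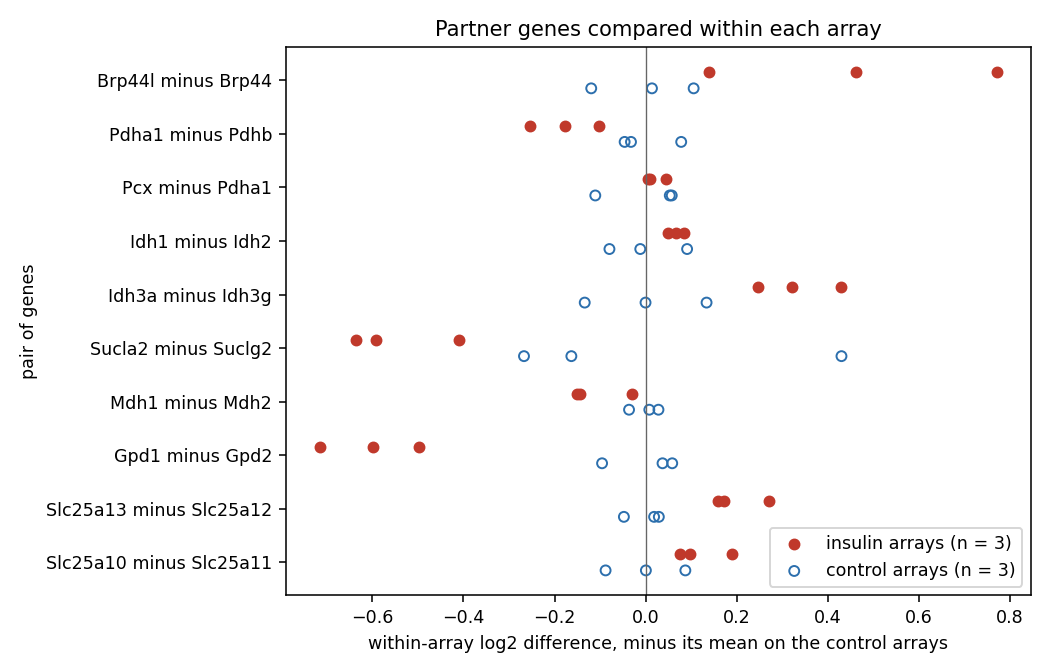
Within-array log2 difference between the genes of 10 pairs, shown relative to its mean on the 3 control arrays, with insulin arrays filled and control arrays open. In 6 pairs the groups do not overlap, most widely for Gpd1 minus Gpd2, whose changes differ by -0.60.

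Neighbouring genes of the pathway were taken from 7 lists of 68 genes, of which 58 were tested. In limma 6 of these rose, where 9.56% of all tested genes did, 7 fell, where 6.35% of all did, and 45 did not pass, with a median change of 0.06. The lists are small, and nothing is read from their counts beyond the genes named. The kinases that switch the pyruvate dehydrogenase complex off and the phosphatases that switch it on gave 3 falls among 6 tested. Pdk4, a kinase induced by fasting, fell by 0.65 ± 0.08 (SE, adjusted p of 0.002 in limma) and measured 9.54, 9.57 and 9.52 with insulin, against 10.06, 10.29 and 10.24 in controls. Pdk2, the broadly expressed kinase, fell by 0.55 ± 0.09 (SE), and Pdp1, a calcium-stimulated phosphatase, fell by 0.52 ± 0.06 (SE). For all 3 the insulin arrays lay below every control. Pdk1, another kinase, was higher by 0.25 ± 0.09 (SE) and did not pass (adjusted p of 0.095 in limma).

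Of 6 tested genes that interconvert pyruvate and lactate or carry them across the cell surface, 2 rose and 1 fell, all of them on the transport side. Slc16a1 (MCT1) rose by 0.41 ± 0.07 (SE) and measured 11.22, 11.34 and 11.34 with insulin, against 10.84, 10.92 and 10.91 in controls. Slc16a3 (MCT4), the lactate exporter of glycolytic muscle, rose by 0.50 ± 0.12 (SE) and measured 9.43, 9.57 and 9.73 with insulin, against 8.86, 9.07 and 9.27 in controls. Bsg, basigin, the chaperone that brings both transporters to the membrane, fell by 0.34 ± 0.10 (SE, adjusted p of 0.045 in limma). Ldha, the muscle subunit of lactate dehydrogenase, changed by 0.14 ± 0.08 (SE) without passing. Ldhd changed by 0.21 ± 0.08 (SE), with insulin arrays above all controls, and did not pass either (adjusted p of 0.116 in limma).

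Among 11 tested genes of other cycle enzymes and of those that drain or refill the cycle, 3 rose and 1 fell. Pck2, the mitochondrial phosphoenolpyruvate carboxykinase, which draws oxaloacetate from the cycle, rose by 1.29 ± 0.08 (SE, adjusted p of 0.00011 in limma). It measured 11.43, 11.56 and 11.56 with insulin, against 10.15, 10.35 and 10.20 in controls, and the groups lay far apart. Slc25a1, the citrate exporter, rose by 0.55 ± 0.07 (SE), and Acly, which cleaves the exported citrate into acetyl-CoA and oxaloacetate in the cytosol, rose by 0.45 ± 0.08 (SE). Me3, the mitochondrial NADP-dependent malic enzyme, fell by 0.58 ± 0.09 (SE). The other 7 of this list did not pass, among them Me1, the cytosolic malic enzyme, with a change of 0.24 ± 0.07 (SE).

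Among 8 tested partners in glutamate and aspartate metabolism, 0 rose and 2 fell in limma, with 2 higher and 3 lower at an unadjusted p under 0.05. Glul, glutamine synthetase, fell by 0.42 ± 0.06 (SE), and Slc1a3, a plasma membrane transporter of glutamate and aspartate, fell by 0.58 ± 0.08 (SE). The aminotransferases that complete the malate-aspartate shuttle did not pass. Their changes were 0.17 ± 0.06 for cytosolic Got1 and 0.14 ± 0.07 for mitochondrial Got2 (SE), and for each the insulin arrays lay above all controls. Slc25a18 had the smallest p among the genes of this list that did not pass. It changed by -0.23 ± 0.08 (SE, adjusted p of 0.075 in limma), with the insulin arrays below all controls. Succinate dehydrogenase and its assembly factors, 6 genes, changed by -0.09 to 0.08, and none passed in limma, nor at an unadjusted p under 0.05. Of 9 genes that supply lipoate and iron-sulfur clusters, 0 passed in limma, and 2 were lower and 0 higher at an unadjusted p under 0.05. Of 12 mitochondrial membrane proteins of other roles, 1 rose, Tomm40, the pore of the outer membrane's protein import machine, by 0.38 ± 0.06 (SE). Tomm70a changed by 0.39 ± 0.11 and Tomm20 by 0.28 ± 0.14 (SE). Neither passed (adjusted p of 0.051 and 0.224 in limma), though in both the insulin arrays lay above all controls. Of the 12, 8 were higher and 4 lower, and their median change was 0.09, beside 0.04 for the 30 members.

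**Figure D5:**
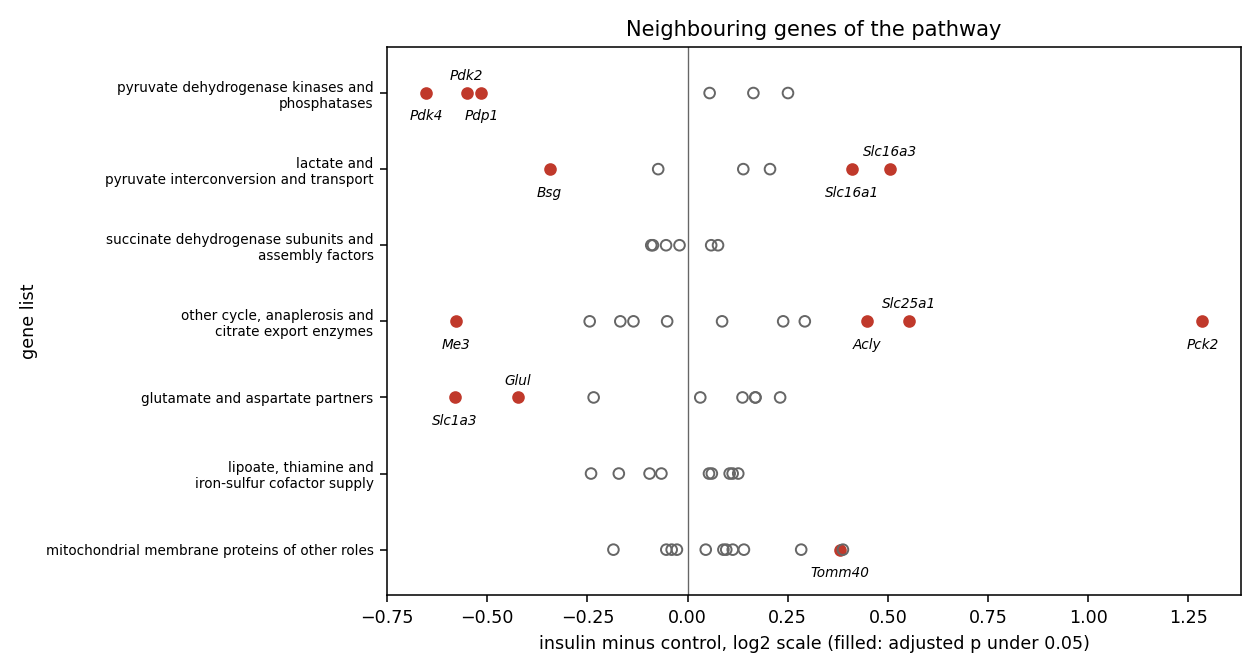
Log2 change (insulin minus control) of the tested genes in 7 neighbouring lists, with a point for each gene, filled and named where the adjusted p was under 0.05. The 3 named falls of the first list are Pdk4, Pdk2 and Pdp1, the point farthest right is Pck2 at 1.29, and no succinate dehydrogenase gene lies farther from 0 than 0.091.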

How the data were processed

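The values deposited by the authors are log2 probe set levels from RMA, per the submitters' processing notes, with no version or genome build given in the sources used here. That the log base is 2 was taken from the span of the values, 3.15 to 14.6. Per the labels' protocols, 25 ng of total RNA was amplified and biotin-labelled. Signal over background was not judged, as detection calls were not used here, and no scan dates are known.

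A gene's value was the median of its probe sets with exactly 1 symbol in the platform annotation (of 241576 probe sets, 4475 had several and 25004 none). Genes under the 30th percentile of mean level (7.05) were left out. The difference of insulin over control arrays was fitted by lmFit and eBayes of limma 3.58.1 (R 4.3.3), two-sided and without covariates, over 14291 genes, and likewise over 148468 probe sets. SDs are over 3 arrays, and SEs are those of the moderated fit. The scripts were tested on simulated data.

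All members are accounted for, with values on every array for those that passed and for the highest and lowest that did not; further members were picked for this with their values known. The members and lists were chosen with earlier results of these data known. Related lists allowed the genes past the threshold and up to 2 others each, those of smallest unadjusted p in limma. Got2 was named beyond this rule. The labels state no pairing of the cultures, and the main fit used none. Alternatives were other normalizations, filters, probe set summaries, variance priors, array weights, a replicate block and leaving out each array.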

Additional observations from a re-analysis of the deposited data

How the results depend on the processing

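Over 16 alternatives the calls of Gpd2 held in all (0.47 to 0.60), and those of Slc25a13 held in the 14 that tested it (0.41 to 0.78), while the call of Idh3a held in 7 of 16 and that of Brp44 (Mpc2) in 6 of 16. No called member changed direction. The 4 members that passed became 2 with no filter, 7 with an intensity trend and robust prior, 9 with array quality weights, and 2 to 3 without 1 array. The 3 that rose became 6 with the trend, 7 with weights, 5 with the mean of probe sets, and 2 to 3 without 1 array. The 1 that fell became 2 with weights, 0 with repeated quantile normalization, no filter, the brightest probe set, the mean of probe sets or the replicate block, and 0 to 1 without 1 array. With the replicate number as a block, 3 members passed, Suclg2 (adjusted p of 0.041 in limma) among them and Idh3a (0.054) and Brp44 (0.087) not. Residuals of same-numbered insulin and control arrays correlated by 0.0246, 0.195 and -0.00036. With 3 arrays a group, these values cannot decide whether the cultures were paired. Unequal change within genes was called by diffSplice in 1 member, in 0 at the 50th percentile filter, where the 2 Ogdh probe sets named above drop out, in 0 when each probe set was set against the others, and in 1 to 4 without 1 array. Over all genes the 2274 calls became 5007 with weights and 3436 with the mean of probe sets. With 1 array left out they became 1995 (control 1), 1237 (control 2), 2446 (control 3), 1267 (insulin 1), 1046 (insulin 2) and 1114 (insulin 3). The causes were not tested. Between partners, the brightest probe sets moved 8 of 10 differences by more than the spread between arrays, among them Brp44l minus Brp44 to 0.006, Pcx minus Pdha1 to 0.09, Mdh1 minus Mdh2 to -0.03 and Slc25a10 minus Slc25a11 to 0.22. Suclg2 and Slc25a12 passed under 5 of 16 alternatives each, Cs under 2, and Dlat and Idh1 under 1. With 3 arrays a group and no detection calls, small changes and dim genes such as Slc25a13 are the least certain.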
